A study of Homo sapiens with 41 samples.

Results

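The 10 genes described here supply acetyl-CoA or spend it: ACSS1, ACSS2, ACSS3, PDHA1, CS, SLC25A1, ACLY, ACACA, FASN and ACAT2. They are 10 of 19974 protein-coding genes on chromosomes 1 to 22 and X. They were chosen by name, because an earlier reading of these data listed ACSS2 among genes that lost PolII peaks with an HDAC6 inhibitor. Each gene was read over its GRCh38 body plus 5 kb on each side, in all 32 peak lists of the series. The cells were MDA-MB231, an established line from a triple-negative breast tumour, and every sample came from 100000 cells. Control cells (Ctrl) were set against cells given Nexturastat A, an HDAC6 inhibitor, at 5 µM for 2 days, and a control hairpin (shCtrl) against a hairpin to HDAC6 (shHDAC6). The lists covered HDAC6 ChIP (Ctrl, inhibitor and shHDAC6, 2 lists each), HDAC6 CUT&Tag (Ctrl, 2 lists), pan-acetyl ChIP with an antibody to acetylated histone H3 (Ctrl and inhibitor, 2 each), PolII ChIP with an antibody to the Rpb1 tail (all 4 groups, 2 each) and ATAC (all 4 groups, 3 each). All groups share 1 cell line, the labels give 1 HDAC6 hairpin name, and they do not say whether replicates were separate cultures.

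Acetyl-CoA is the acetyl donor for histone acetylation and the carbon source of fatty acids and sterols. In mitochondria the pyruvate dehydrogenase complex makes it from pyruvate, and citrate synthase joins it to oxaloacetate. Citrate leaves through the citrate carrier and is split by ATP-citrate lyase in the cytosol and nucleus, while acetyl-CoA synthetases make acetyl-CoA directly from acetate. HDAC6 is a largely cytoplasmic deacetylase best known for removing acetyl groups from tubulin.

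The files are peak lists, not signal: a gene has a peak or has none, and a list's length sets how many genes have one. PolII lists held 19519 to 31198 peaks and ATAC lists 25878 to 79666. HDAC6 ChIP lists held 235 to 63833 peaks and pan-acetyl lists 1418 to 61186. Both HDAC6 inhibitor lists were short (3256 and 235 peaks, against 28590 and 63833 in control), and so was the first pan-acetyl control list (1418 peaks). The first and second HDAC6 ChIP lists of the control and inhibitor groups used the CST and Novus antibodies, respectively. Both shHDAC6 lists and both CUT&Tag lists used Novus. Peak names in the inhibitor list labelled Novus begin like those of the shCtrl PolII lists, and names in the second CUT&Tag control list contain shc. Both go by their labels below, and results resting on them are also given without them. VIM, CD44, EGFR, AXL and KRT18, markers of this line, had an ATAC peak at the start in 3 of 3 and a PolII peak in 2 of 2 control lists. KRT8 had ATAC in 3 of 3 and PolII in 0 of 2. Over all groups these markers were less complete. ATAC was called at CD44, EGFR and KRT8 in 6 of 12 lists, KRT18 in 9, AXL in 10 and VIM in 12. PolII was called at CD44 in 6 of 8 lists and at KRT8 in 0. ERBB2 also had both marks in every control list, although the label calls the cells triple-negative. Of the other receptors, ESR1 had ATAC in 1 of 3 and PolII in 0 of 2 control lists, and PGR had each in 1. PTPRC (leukocyte) and CDH5 (endothelium) had neither mark. Other markers of foreign cell types did have peaks: CD3E (T cell) ATAC in 3 of 3 and PolII in 0 of 2, PECAM1 (endothelium) ATAC in 1, RBFOX3 (neuron) ATAC in 2 and PolII in 1, and SNAP25 (neuron) PolII in 1. Over all 12 ATAC lists RBFOX3 had a peak in 10 and SNAP25 in 7.

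ACSS2 and ACACA have several annotated starts, and the peaks did not fall on all of them. The 250 bases upstream of 4 of these starts are shown, taken from RefSeq (GRCh38.p14), 5′ to 3′ on the gene's strand, because the results for both genes turn on which start is occupied. Capitals mark GC boxes (GGGCGG) and CCAAT boxes (CCAAT), found on either strand. The ACSS2 stretches are chr20:34874739-34874988 and chr20:34876362-34876611 on the plus strand, and the ACACA stretches are chr17:37406837-37407086 and chr17:37299768-37300017 on the minus strand.
ACSS2 start 1: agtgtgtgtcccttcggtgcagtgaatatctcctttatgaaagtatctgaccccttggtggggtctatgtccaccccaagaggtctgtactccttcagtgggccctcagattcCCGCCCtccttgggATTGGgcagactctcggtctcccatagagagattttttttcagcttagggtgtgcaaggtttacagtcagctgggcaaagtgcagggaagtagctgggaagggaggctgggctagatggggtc
ACSS2 start 2: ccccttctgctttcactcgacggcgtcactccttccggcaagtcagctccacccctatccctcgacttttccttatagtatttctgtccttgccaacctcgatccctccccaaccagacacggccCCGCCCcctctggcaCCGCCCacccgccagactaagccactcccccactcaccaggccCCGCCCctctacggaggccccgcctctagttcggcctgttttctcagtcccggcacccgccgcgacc
ACACA start 1: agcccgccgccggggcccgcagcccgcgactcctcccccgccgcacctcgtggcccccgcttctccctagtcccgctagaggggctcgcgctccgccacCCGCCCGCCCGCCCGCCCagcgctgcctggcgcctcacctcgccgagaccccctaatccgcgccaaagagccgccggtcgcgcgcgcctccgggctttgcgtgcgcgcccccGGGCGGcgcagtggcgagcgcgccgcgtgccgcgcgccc
ACACA start 3: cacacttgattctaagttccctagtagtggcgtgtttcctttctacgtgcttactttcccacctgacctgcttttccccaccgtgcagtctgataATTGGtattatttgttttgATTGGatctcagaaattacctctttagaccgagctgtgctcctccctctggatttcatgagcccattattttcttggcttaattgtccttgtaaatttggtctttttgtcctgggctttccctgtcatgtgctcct

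The second ACSS2 start, where PolII peaks lie, has 3 GC boxes and no CCAAT box in the 300 bases from 250 before the start, and the first start has 1 of each. ACACA has 6 GC boxes at its first start, 7 at the second and 0 at the third, where no PolII list had a peak. Their GC contents are 82.3%, 77.3% and 45.3%, against a median of 58.7% over 34789 RefSeq promoters. SLC25A1 has 8 GC boxes, CS 5, ACLY 4 at each of its 2 starts, PDHA1 2, and ACSS1 4 at its first start and 0 at its second. A GC box occurs in 44.9% of all these promoters and a CCAAT box in 34.6%. No promoter of the 7 members in the table holds a sterol regulatory element (TCACNCCAC, 1.1% of all), an E-box (CACGTG, 7.24%) or a TATA box (TATAAA, 11.6%). The table has no entry for ACSS3, FASN or ACAT2, whose start was taken as the gene end with peaks in more lists.

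All 10 genes had a PolII peak within 1 kb of a start in all 8 PolII lists, which 53.6% of genes did. An ATAC peak lay at the start in all 12 ATAC lists for 7 of the 10, against 43% of genes. The exceptions were ACSS1 (9 of 12 lists), ACSS3 (6 of 12) and PDHA1 (11 of 12). Over all assays, ACLY had a start peak in 27 of 32 lists and ACSS3 in 15, the highest and lowest counts. The windows held 584 peaks in all. Of these, 290 lay at a member's own start, 163 in the gene body, 87 at a neighbour's start and 44 in a flank.

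**Figure D1:**
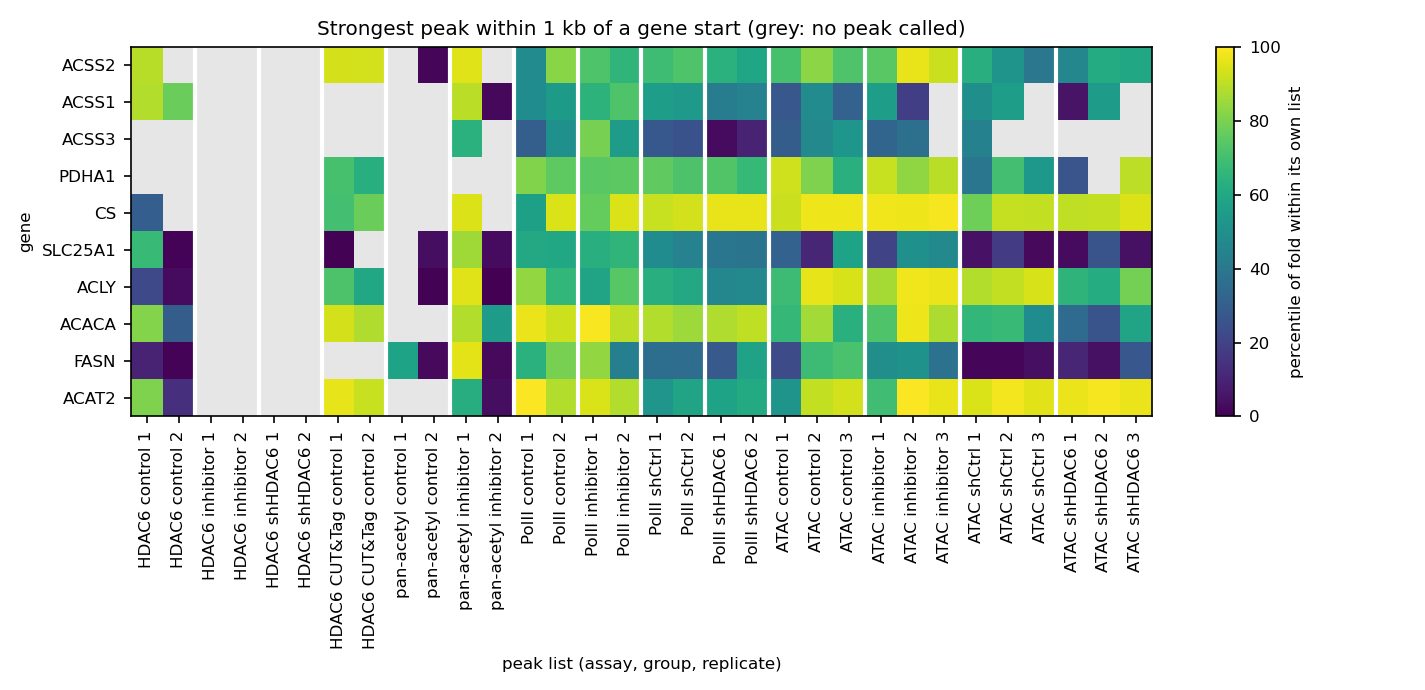
Percentile of the authors' fold of the strongest start peak among all peaks of the same list (colour), for 10 genes (rows) in 32 lists (columns), with grey where no peak was called. All PolII columns are filled for the 10 genes, and the HDAC6 inhibitor and shHDAC6 columns are empty. Colours compare peaks within a column, not between columns.

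ACSS2 (chromosome 20, 34874989 to 34927959) encodes the cytosolic and nuclear acetyl-CoA synthetase. It has 2 RefSeq starts 1623 bp apart. A PolII peak covered the second start in all 8 lists. Measured from the first start, its left edge lay at 933 and 915 bp in the control lists and at 1133 and 1317 bp in the inhibitor lists. It lay at 1313 and 1335 bp in shCtrl and at 1306 and 1177 bp in shHDAC6. So the control peaks reached within 1 kb of the first start in 2 of 2 lists, and those of the other 3 groups in 0 of 2 lists each. Read at the first start alone, ACSS2 is thus called as losing a PolII peak with inhibitor. That call rests on the edge of the peak over the second start, as no PolII list had a separate peak at the first. At the second start no peak was lost, so the statement that ACSS2 lost PolII peaks describes where this edge fell and not the loss of a peak.

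The peak itself ranked in the middle to upper part of every list. Its fold over the caller's background, a value the authors deposited for each peak, was 3.85 and 10.7 in control and 4.37 and 7.63 with inhibitor. The percentiles within the lists were 48.4 and 82.4 in control and 72.5 and 65.6 with inhibitor. Its −log10 q was 12.1 and 74.8 in control and 13.4 and 58.8 with inhibitor. Peak widths were 1083 and 1195 bp in control and 942 and 745 bp with inhibitor, and did not overlap. They were 734 and 696 bp in shCtrl and 744 and 858 bp in shHDAC6, also below both controls. As ACSS2 was chosen on this contrast, these values carry no test.

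**Figure D2:**
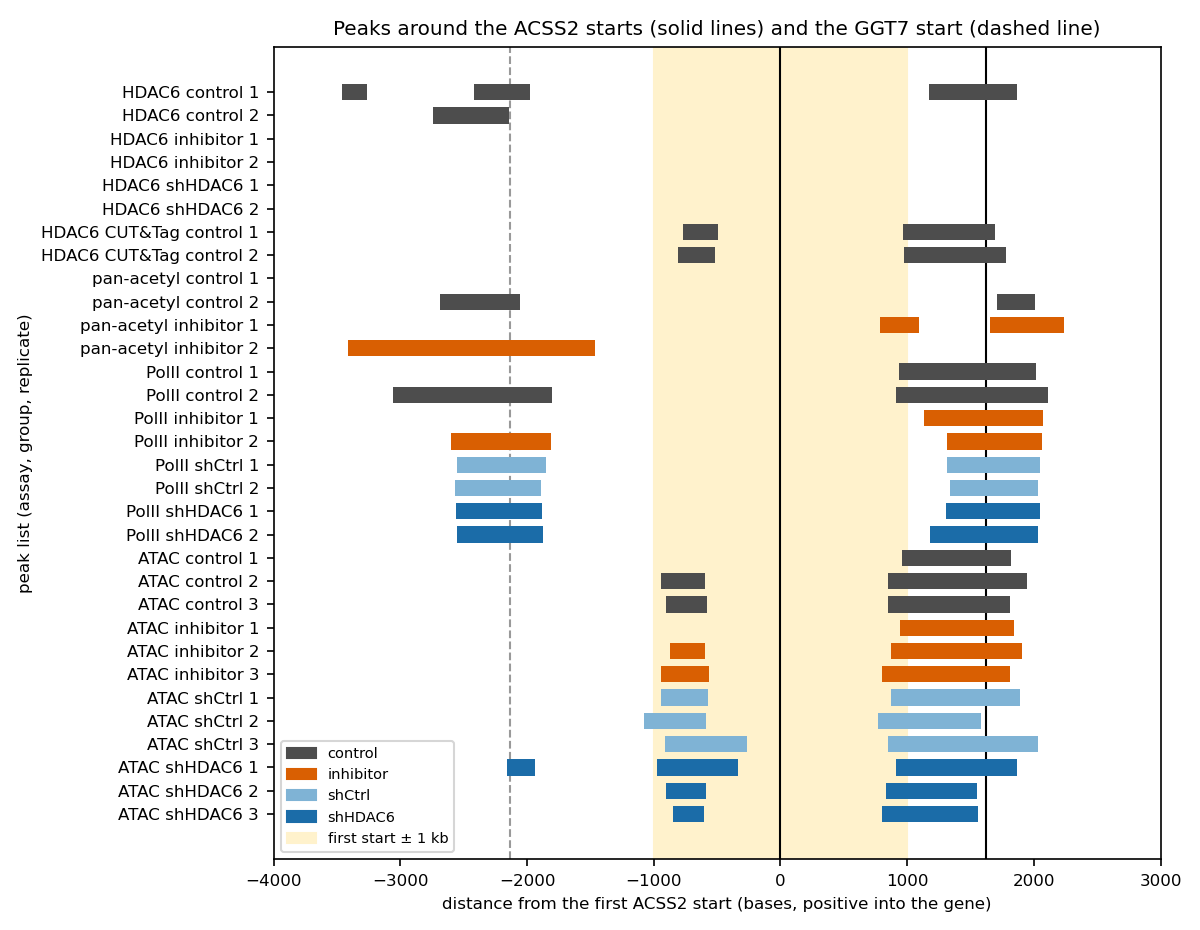
Peaks of all 32 lists (rows) around the ACSS2 starts, by distance in bases from the first start, coloured by group, with the first start ± 1 kb shaded. Every PolII row has a bar over the second start at 1623 bp, and of these bars those of the 2 control lists enter the shaded stretch.

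Other marks met at the same second start. ATAC peaks lay within 1 kb of it in all 12 lists. HDAC6 peaks lay over it in the CST control ChIP list (percentile 89.1) and in both CUT&Tag lists (93.7 and 93.2), and in no inhibitor or shHDAC6 list. The Novus control ChIP list had none there either, and Novus was the antibody of both shHDAC6 lists and 1 inhibitor list. Both CUT&Tag lists, which had the peak, used Novus too. A pan-acetyl peak touched its surroundings in 1 of 2 control and 1 of 2 inhibitor lists. The PolII peaks around −2133 bp from the first start lie at the start of GGT7, a neighbouring gene.

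An ATAC peak inside ACSS2, about 32303 to 33359 bp from the first start, was singled out after its values were seen. It was called in 3 of 3 control and 3 of 3 inhibitor lists, in 0 of 3 shCtrl lists and in 1 of 3 shHDAC6 lists. Its percentile was 99.9, 72.7 and 90.2 in control and 99.5, 35.8 and 72.5 with inhibitor. Calls were thus more frequent in parental than in hairpin lists. The parental ATAC lists are also longer, at 42113 to 79666 peaks against 25878 to 32998. The share of all sites with this pattern was not computed. Whether parental and hairpin cells were prepared together is not given in the sources used here.

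ACSS1 (chromosome 20, 25006237 to 25058139), the mitochondrial acetyl-CoA synthetase, had PolII at its first start in all 8 lists and at its second, 25433 bp downstream, in 0 of 8. PolII percentiles at the first start were 48.7 and 54.5 in control, 64.7 and 72.5 with inhibitor, 55.7 and 54.2 in shCtrl and 42.5 and 44.5 in shHDAC6. The lowest of these was 42.5 and the highest 72.5. Its ATAC start peak was missing in 1 inhibitor, 1 shCtrl and 1 shHDAC6 list.

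ACSS3 (chromosome 12, 81077871 to 81261210) is a mitochondrial short-chain acyl-CoA synthetase. It had the weakest PolII peaks of the 10 in both hairpin groups, with percentiles of 27.4 and 25.1 in shCtrl and 3.11 and 9.61 in shHDAC6. In the parental lists they were 30.4 and 50.1 in control and 79.5 and 54.9 with inhibitor. These are ranks within lists of different length and show no change. Its ATAC start peak was called in 3 of 3 control, 2 of 3 inhibitor, 1 of 3 shCtrl and 0 of 3 shHDAC6 lists.

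PDHA1 (chromosome X, 19343927 to 19361718) encodes the catalytic alpha subunit of pyruvate dehydrogenase. PolII percentiles at its start ran from 66.9 to 81.1 over 8 lists, and the ATAC peak was missing in 1 shHDAC6 list. No pan-acetyl list had a peak in its window, in any of 4 lists. Among 11001 genes with PolII at the start in all 4 parental lists, 67 (0.609%) had no pan-acetyl peak.

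CS (chromosome 12, 56271699 to 56300330), citrate synthase, had some of the strongest start peaks. Its ATAC percentile was at least 77.9 in every list and reached 98.5. Its PolII percentiles were 91.6 and 93.0 in shCtrl and 96.5 and 96.8 in shHDAC6, and in parental cells 56.7 and 94.4 in control and 76.5 and 94.7 with inhibitor. Of 55 peaks in its window, 24 lay at its own start and 27 at the starts of COQ10A, the next gene.

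SLC25A1 (chromosome 22, 19175581 to 19178736) encodes the mitochondrial citrate carrier and is the shortest of the genes, at 3156 bp. PolII peaks covered 51.9% and 48.5% of its window in control, 51.0% and 53.6% with inhibitor, 53.8% and 55.5% in shCtrl and 62.6% and 58.2% in shHDAC6. The window is 13156 bp long, so most of it is flank, and it also holds the non-coding RNA gene LINC01311. Every PolII list had a flank peak that ranked above the start peak. In control their percentiles were 98.5 and 84.7 against 60.2 and 59.7. In each of the 8 lists a single PolII peak ran across the whole gene. Its ATAC start peak was weak beside this: the percentile ran from 2.56 to 58.0 and was under 30 in 8 of 12 lists.

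ACLY (chromosome 17, 41866917 to 41930545), ATP-citrate lyase, splits exported citrate. Its 2 table starts lie 71 bp apart and were covered by PolII together in all 8 lists. Its window held 105 peaks. Of these, 49 lay at the starts of the neighbours KLHL11 and ODAD4, so counts over the window describe 3 genes. PolII peaks also lay in the gene body some 8 to 13 kb downstream in 7 of the 8 lists, all but the second control list. With shCtrl they spanned 7920 to 10621 and 7951 to 12644 bp, and with shHDAC6 9595 to 10141 and 8061 to 10092 bp.

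ACACA (chromosome 17, 37084992 to 37406836) encodes acetyl-CoA carboxylase, which turns acetyl-CoA into malonyl-CoA. PolII peaks were called at its first and second start, 47740 bp apart, in all 8 lists, and at the third, 107069 bp from the first, in none. The stronger of the 2 peaks had a percentile from 85.5 to 99.0. The first start lies 50 bp from a start of TADA2A on the other strand, so the peak there cannot be assigned to 1 gene.

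FASN (chromosome 17, 82078338 to 82098236), fatty acid synthase, showed the widest spread of PolII. PolII peaks covered 36.4% and 9.59% of its window in control and 39.0% and 76.8% with inhibitor. They covered 90.05% and 89.7% in shCtrl and 82.8% and 80.8% in shHDAC6. The start itself had a peak in all 8 lists, and what varied was how far peaks ran across the gene. Both inhibitor values lay above both control values, but the second control list stood far below the first. All hairpin lists lay above all parental lists, and the share of all genes that separate this way was not computed. Hairpin, cell preparation and peak calling cannot be told apart here. The deposited score tracks p in every hairpin PolII list, but q in the first control and inhibitor lists and p in the second.

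**Figure D3:**
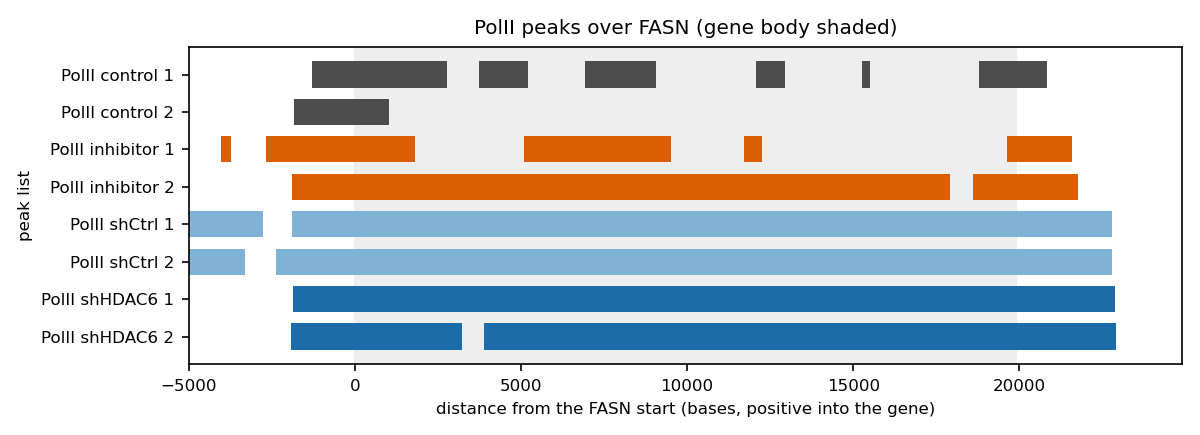
PolII peaks over FASN by distance in bases from its start (gene body shaded), 1 row per list, coloured by group. Bars run nearly unbroken across the gene in the 4 hairpin lists and the second inhibitor list, and are broken or limited to the start in the other 3.

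ACAT2 (chromosome 6, 159762045 to 159779112) encodes the cytosolic thiolase that joins 2 acetyl-CoA on the way to sterols. Its start lies 236 bp from that of SOD2, which is read the other way, so start peaks belong to both. PolII percentiles were 99.3 and 88.3 in control, 94.1 and 88.4 with inhibitor, 52.0 and 58.3 in shCtrl and 58.1 and 61.1 in shHDAC6. The lists differ in length, so these ranks are not compared between groups. Its ATAC percentile was 51.8 and 69.5 in the first control and inhibitor lists and at least 90.7 in the other 10. The deposited score tracks q in those first lists and p in the other 10.

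HDAC6 ChIP peaks were found at starts of these genes in control cells and not after inhibitor. Both control lists had a start peak at 6 of the 10: ACSS1, SLC25A1, ACLY, ACACA, FASN and ACAT2 (16.5% of genes did). Neither inhibitor list had one at any of them, so 6 of 10 lost it, against 15% of all genes. Without the Novus control list 8 of 10 lost it against 50.4% of genes, and without the CST control list 6 of 10 against 22% of genes. Of all genes with a peak in both control lists, 91.1% lost it, so the loss was near general. For ACSS1 the 2 control lists marked different starts, the first in 1 and the second in the other. No inhibitor list had a peak anywhere in the 10 windows, as for 92% of genes, and 8 of 10 windows had fewer peaks than in control (44% of genes), the exceptions being ACSS3 and PDHA1. Without the inhibitor list whose peak names differ from its label, 6 were still lost, against 15.1% of genes. The inhibitor list that remains is itself short, at 3256 peaks.

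These HDAC6 peaks were weak. At the members' starts the deposited −log10 q ran from 1.44 to 3.01 in the CST control list and from 0.0212 to 0.147 in the Novus list. The deposited score tracks q in that CST list and p in that Novus list, so antibody and calling differ together. None of the 14 start peaks reached a −log10 q of 5. With that floor, or with every list trimmed to the length of the shortest, 0 members and 0 other genes were called lost. The exact two-sided permutation test on covered share cannot go below p = 0.333 with 2 lists a group, so no member could pass it.

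In shHDAC6 cells no member had an HDAC6 start peak in either list, as for 95.3% of genes. Peaks lay in the windows of 3 genes, ACSS3, ACACA and ACAT2, away from the starts, and 7 of 10 windows were empty in both lists (60.2% of genes). The one control ChIP list with the same antibody had start peaks at 6 of 10, and at 23.6% of all genes. That is a single list, and no test was made.

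CUT&Tag, an antibody-tethered tagmentation assay run here with the Novus antibody, found HDAC6 at a partly different set. Both control lists had a start peak at 6 of 10: ACSS2, PDHA1, CS, ACLY, ACACA and ACAT2 (36.5% of genes did). ACLY, ACACA and ACAT2 were the 3 with a peak in all 4 control lists of both assays, against 9.09% of genes. Without the second CUT&Tag list SLC25A1 joined them, making 4, against 9.57% of genes. FASN and ACSS1 had start peaks in both ChIP lists and in neither CUT&Tag list. The percentile was 96.3 and 91.5 for ACAT2, 93.6 and 88.1 for ACACA, and 71.9 and 59.6 for ACLY. Of 13 CUT&Tag start peaks, 8 reached a −log10 q of 5. The first CUT&Tag list alone had start peaks at 7 members, the 6 named and SLC25A1, and at 38.8% of all genes.

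Pan-acetyl peaks at the starts were few in control and more common with inhibitor. ACSS1, ACACA and ACAT2 had no start peak in either control list and one in both inhibitor lists, so 3 of 10 gained, against 20.3% of genes. Among genes without a control peak, 26.6% gained one. No member or other gene lost a start peak (0%). FASN alone of the 10 had a start peak in all 4 lists, as 2.47% of genes did, and so also in both control lists. Start peaks were called at 1 and 4 members in control and at 9 and 6 with inhibitor. Over all genes the same lists had start peaks at 6.71% and 19.7% in control and 61.0% and 40.2% with inhibitor, the same direction as in the members. The first control list, with 1418 peaks, had FASN alone.

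Coverage followed the same order. Pan-acetyl peaks covered 0% and 10.7% of the SLC25A1 window in control and 37.8% and 46.9% with inhibitor. Most of that window is flank, and both inhibitor lists had a flank peak in it. For FASN the shares were 3.62% and 5.71% in control and 19.2% and 11.5% with inhibitor. For ACAT2 they were 0% and 0% in control and 5.89% and 5.92% with inhibitor. All 3 were higher with inhibitor without overlap between groups, as were 7 of 10 in all (39% of genes), the exceptions being ACSS2, PDHA1 and ACACA. In ACSS2 coverage was 0% and 2.27% in control and 1.41% and 3.74% with inhibitor, which overlap. The number of peaks was higher in 4 windows, those of ACSS1, SLC25A1, ACLY and ACAT2 (23.5% of genes), and lower in none (0.015%). No window had a lower covered share (0.00501% of genes).

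**Figure D4:**
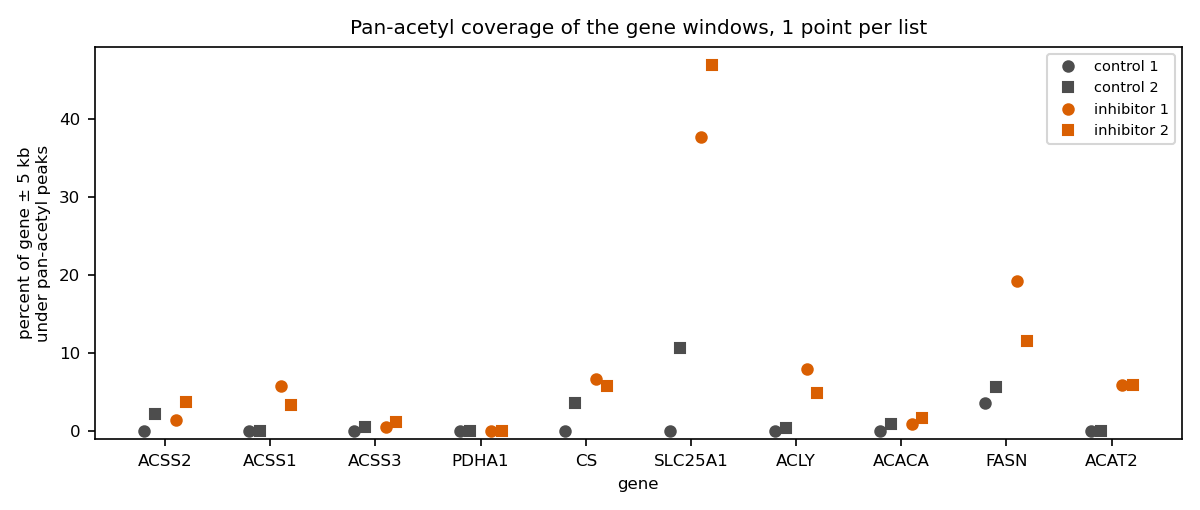
Percent of each gene window under pan-acetyl peaks, 1 point per list (circle: first, square: second replicate; grey: control, orange: inhibitor). Inhibitor points stand highest at SLC25A1 (37.8 and 46.9), and PDHA1 has 0 in all 4 lists.

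The 2 inhibitor lists differed in strength and in calling, as the deposited score tracks q in the first and p in the second. Percentiles of the gained start peaks were 89.7 and 2.26 for ACSS1, 88.6 and 54.7 for ACACA, and 62.3 and 3.71 for ACAT2. At the members' starts −log10 q ran from 2.21 to 8.22 in the first and from 0.113 to 0.734 in the second. With lists of equal length, or with a −log10 q of at least 5, no member was called gained, and few genes were (0.205% and 0%). Covered share could again not go below p = 0.333 in an exact two-sided permutation test.

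Counted over all starts of a gene, PolII calls did not move at any member with inhibitor: 0 of 10 lost and 0 gained a start peak, against 0.0401% and 0.29% of genes. The call at the first ACSS2 start alone moved with the edge of the peak over the second start, as described. None had fewer or more peaks in the window (0.671% and 4.74% of genes). PolII covered a larger share of the window at 3 of 10, PDHA1, ACLY and FASN (14% of genes), and a smaller share at none (1.27%). For PDHA1 the shares were 2.27% and 3.67% in control and 5.19% and 7.15% with inhibitor. For ACLY they were 6.61% and 6.22% against 9.09% and 8.05%. Between same-numbered lists ACLY also had more peaks with inhibitor, 5 against 6 and 3 against 5 peaks. Of 9 exact two-sided permutation tests on covered share (ACSS2 was left out), 3 reached the smallest p these lists allow, 0.333.

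With the hairpin to HDAC6, again 0 of 10 lost or gained a PolII start peak, against 0.586% and 0.796% of genes. Peak number was lower or higher without overlap at none (8.73% and 3.11% of genes). Covered share was lower at ACSS1, ACSS3, ACLY and FASN (26.1% of genes) and higher at SLC25A1, ACACA and ACAT2 (20% of genes). For ACLY the shares were 10.1% and 11.9% in shCtrl and 6.25% and 8.34% in shHDAC6. ACLY and FASN were thus higher with inhibitor and lower with the hairpin, each against its own control. The exact two-sided permutation p was 0.333 at these 7, the smallest possible here.

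**Figure D5:**
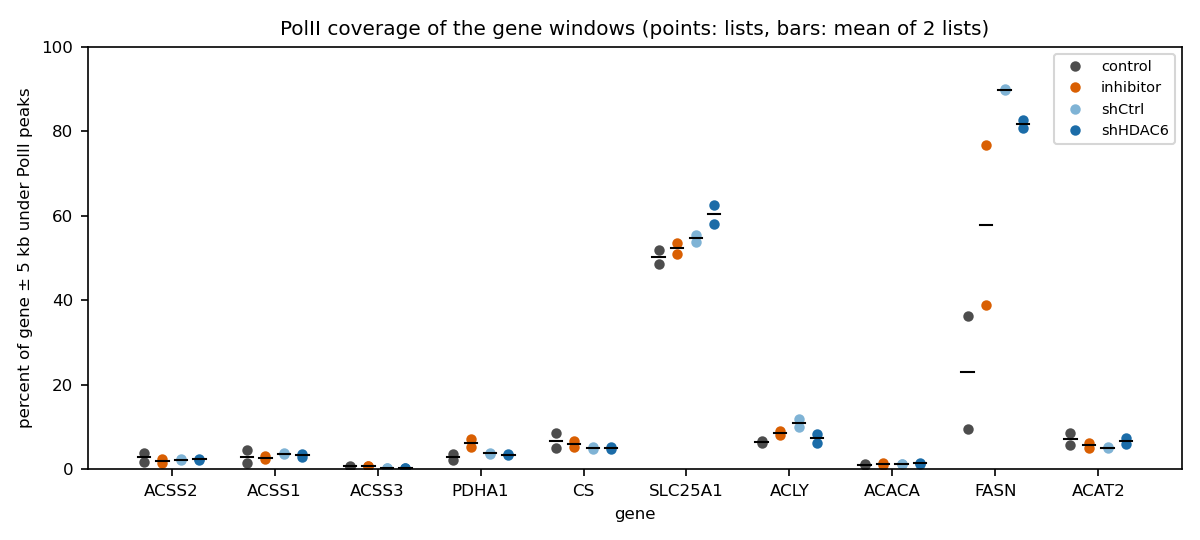
Percent of each gene window under PolII peaks, points for single lists and bars for the mean of 2 lists, coloured by group. SLC25A1 and FASN stand far above the other 8 genes, except for FASN in the second control list (9.59), which lies among them. Most of the SLC25A1 window is flank. FASN alone of the 10 has its 2 control lists more than 20 percentage points apart.

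No member lost or gained accessibility calls at its start. With inhibitor 0 of 10 lost and 0 gained an ATAC start peak (0.0451% and 0.0501% of genes), and 0 had fewer or more peaks (0.18% and 1.53%). With the hairpin 0 lost and 0 gained one (0.175% and 0.19% of genes), and 0 had fewer or more peaks (1.4% and 0.551%). Covered share separated the groups at none of the 10, lower or higher, with inhibitor (2.35% and 3.03% of genes) or with the hairpin (6.52% and 2.84%). With 3 lists a group the exact two-sided permutation test can reach p = 0.1, and none of 18 tests did. The smallest exact p was 0.2, for PDHA1 with the hairpin, with a covered share of 3.4% ± 0.644 (SD, n = 3) in shCtrl and 1.76% ± 1.54 (SD, n = 3) in shHDAC6. This rested on the shHDAC6 list with no PDHA1 peak.

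A further 84 genes of the same metabolism, in 7 lists, served as company. HDAC6 start peaks were lost with inhibitor at 13 of 84 (15.5%), close to the 15% of all genes. They included OGDH and ACO1 of the citrate cycle, MBTPS1 and PRKAA2 among regulators, and CPT2 of fatty acid oxidation. Pan-acetyl start peaks were gained at 26 of 84 (31.0%, against 20.3% of all genes) and lost at 0. They included PMVK of the sterol pathway, with a mean percentile of 84.4, ELOVL6 of fatty acid elongation (75.7) and the malic enzyme ME1 (75.1). PolII start peaks were lost with the hairpin at 2 of 84 (2.38%, against 0.586% of all genes), PDK4, a kinase that switches off pyruvate dehydrogenase, and SLC16A3, a lactate exporter. Both were low in the shCtrl lists, with mean percentiles of 24.0 for PDK4 and 0.604 for SLC16A3. No other comparison called any of the 84. A PolII start peak in all 8 lists, found at 53.6% of all genes, was present at 10 of 12 genes around pyruvate dehydrogenase, 9 of 10 of the citrate cycle and 12 of 13 of fatty acid synthesis. It was present at 13 of 14 in the sterol pathway, all 12 regulators, 11 of 14 of fatty acid oxidation and 4 of 9 of transport, hydrolysis and export.

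The genes most like ACSS2 in start percentile over the 32 lists were TIPARP, ANKRD12, CACUL1, CYSTM1 and TNIK. Their mean absolute difference from ACSS2 was 7.50, 7.65, 7.84, 7.96 and 8.14 percentile points. ACSS2 had a start peak in 25 of 32 lists and these genes in 24 to 26, and a list without a peak counted as 0 in this measure.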

How the data were processed

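Peak lists of 32 of 41 samples were used, and the other 9 are inputs or negative controls without a list here. Tools in the submitters' processing notes include MACS2 2.2.7.1 and Bowtie2 2.4.4, with the build hg38. The authors deposited, per peak, a score, a fold over background (a linear ratio) and −log10 of p and q. The lists have no header, and read depth is unknown. The score tracks q in some lists and p in others, so calling differed between replicates. Peaks overlapping a RefSeq (GRCh38.p14) gene start ± 1 kb, or the gene ± 5 kb, by 1 bp were counted in Python 3.11.15 with pandas 2.3.3 and SciPy 1.17.1. Starts came from the promoter table for 15812 genes (7 members) and otherwise from the gene end with peaks in more lists. A start was lost or gained when present in every list of one group and in none of the other. Peak number or coverage changed when groups did not overlap. Fold was used as a percentile within its list. All members are named, with up to 4 pathway genes per list and comparison by percentile and the 5 genes nearest to ACSS2. Some genes that this rule would name are not reported here. Members and gene lists were chosen with earlier results of these data known. The code for the calls was run on copies of the PolII control lists with start peaks of some genes removed or added. Recovery of these is fixed by the definition of a call, so this checks the code and not the results. Same-numbered ATAC control and inhibitor lists deviated together (r = 0.686, 0.348 and 0.284 across 18167 genes), which met the pairing criterion of over 0.1 for every pair. Differently numbered lists 2 and 3 also correlated (0.317 and 0.244). The score tracks q in the first ATAC control and inhibitor lists and p in every other ATAC list. Whether this difference in calling underlies the correlations was not tested. The calls and permutation tests did not pair lists, and pairing entered only as the replicate block below. Alternatives were a −log10 q floor of 5, lists of equal length, a 3 kb window, 200 bp overlap, no flanks, coverage, a replicate block, leaving out each list and, chosen after seeing the data, the most upstream start alone.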

Additional observations from a re-analysis of the deposited data

How the results depend on the processing

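Counts of the 10 members were recomputed for 24 results under 232 alternatives. Of these, 203 stayed within 1.5 times the reported count and 29 did not. Most results had a reported count of 0, and a recomputed 0 was scored as unchanged, so the 203 say little about robustness. Only HDAC6 starts lost, HDAC6 windows with fewer peaks, pan-acetyl starts gained and pan-acetyl windows with more peaks had counts above 0. A −log10 q of at least 5 and lists of equal length each took HDAC6 starts lost from 6 to 0, HDAC6 windows with fewer peaks from 8 to 0, pan-acetyl starts gained from 3 to 0 and pan-acetyl windows with more peaks from 4 to 0. Fewer peaks enter under both by construction. Equal length also called 1 ATAC window lower with inhibitor (ACSS3, 0.781% of genes) and 1 higher with the hairpin (SLC25A1, 1.33%). Covered share in place of peak number gave 7 pan-acetyl windows higher (39% of genes) and 3 PolII windows higher with inhibitor (14%). With the hairpin it gave 4 PolII windows lower (26.1%) and 3 higher (20%). Reading the most upstream start alone gave 1 PolII start lost with inhibitor, ACSS2 (0.0451% of genes), through the edge of the peak over its second start.

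Pairing lists by replicate number (replicate block) gave 8 HDAC6 windows lower (44.8% of genes) and 5 pan-acetyl windows higher (34.3%). It gave 1 PolII window higher with inhibitor (ACLY, 8.25% of genes) and 0 in the other window counts. Deviations of same-numbered lists correlated at 0.392 for HDAC6, where the number also marks the antibody, 0.0595 for pan-acetyl, 0.727 for PolII with inhibitor and 0.0794 with the hairpin, and at 0.0190, −0.0273 and 0.0282 for ATAC with the hairpin.

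Leaving out 1 list at a time gave 6 to 8 HDAC6 starts lost (15.1% to 50.4% of genes) and 8 to 10 windows lower (44.3% to 66.3%). It gave 3 to 5 pan-acetyl starts gained (23.4% to 40.2% of genes), 4 to 8 windows higher (25.4% to 48.7%) and 0 to 1 lower (0.025% to 9.2%). Starts gained were 5 without the second control list (30.4% of genes) or without the second inhibitor list (40.2%). Windows higher were 8 without the second control list (48.7%), and ACSS2 was lower without the first control list (9.2%). PolII windows with inhibitor were lower at 0 to 3 (3 without the second control list, against 5.5% of genes). They were higher at 0 to 4 (4 without the second inhibitor list, against 20.5%, and 2 without the first control list, against 10.1%). With the hairpin, PolII windows were lower at 0 to 1 (ACLY without the second shCtrl list, 13.2% of genes, and FASN without the second shHDAC6 list, 10.9%). They were higher at 0 to 1 (ACAT2 without the second shHDAC6 list, 5.78%). ATAC windows were higher at 0 to 2 with inhibitor (ACSS2 and CS without the third inhibitor list, 2.9% of genes). With the hairpin they were higher at 0 to 1 (ACSS3 without the first shCtrl list, 1.38%, and FASN without the first shHDAC6 list, 1.21%). The causes were not tested. List length and unknown depth limit every absence reported here.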
